A study of Mus musculus with 24 samples.

Results

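The autophagy genes described here are Ulk1, Becn1, Wipi1, Atg7, Atg5, Atg12, Map1lc3a, Map1lc3b, Gabarapl1 and Lamp1. They are 10 of the 18441 protein-coding genes that the arrays list, chosen by name, and 17 of the 41174 probes other than controls read them. All cells were immortalized mouse embryonic fibroblasts deleted for Ku70 (Xrcc6), a subunit of the DNA end-binding complex of nonhomologous end joining, so the untreated controls carry the deletion too and no wild-type cells are compared. Each of the 8 groups has 3 arrays, which the study calls biological replicates, and 5 groups form the first set of arrays. These are control, KBrO3 alone (20 mM for 1 hr, then fresh medium) sampled 4 or 24 hr after damage began, and co-exposure sampled at the same times. In co-exposure 150 μM BPA was present 1 hr before, during and after the KBrO3. The second set holds its own control and BPA alone (150 μM) at 4 and 24 hr. Those times are the labels', and the study's methods give longer exposures to BPA alone. The first set's controls are labelled 4 hr, and those of the second set carry no time. In the first set each 24 hr group is thus compared with 4 hr controls, and treatment and time in culture cannot be told apart there. KBrO3 is an oxidizing agent that damages DNA bases, and BPA is the monomer of polycarbonate plastics. The study asked how a high dose of BPA changes the response of these cells to oxidative damage.

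Macroautophagy encloses cytoplasm in a double membrane, the autophagosome, and delivers it to the lysosome. The ULK1 kinase starts the process, the Beclin 1 lipid kinase complex makes the lipid PI3P on the growing membrane, and WIPI proteins bind that lipid. A ubiquitin-like pathway then works in order: ATG7 activates ATG12, which is joined to ATG5, and the ATG12-ATG5 conjugate helps attach the ATG8 proteins (LC3A, LC3B and GABARAPL1 among them) to the membrane, where they hold cargo receptors. In fibroblasts autophagy is known to clear damaged mitochondria and protein aggregates after oxidative stress. Transcript levels do not measure the rate of the process.

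All 17 probes of these genes were well above background and none was saturated on any of the 24 arrays. Over all spots other than controls, 57.7% to 68.1% were well above background in the first set, against 76.4% to 79.4% in the second. The median residual SD over probes was 0.106 log2 units for the first set against 0.318 for the second, so a change of a given size was harder to detect for BPA alone. In simulated data, 46.3% of 1.5-fold and 83.6% of 2-fold changes were recovered for KBrO3 at 4 hr, against 0% and 2.99% for BPA at 4 hr. Each simulated set had only 200 changed probes, fewer than the genes called in the data, which makes the limit on adjusted p stricter. A 1.5-fold change also sits at the fold limit of the calls defined below. These shares therefore do not give the sensitivity in the data. A probe for Xrcc6 was well above background on all 24 arrays, and whether it lies in the deleted part is not given in the sources used here. Of 7 fibroblast markers, 6 were well above background on all 24 arrays, against 0 of 4 epithelial, 1 of 3 endothelial, 1 of 4 skeletal muscle, 2 of 4 adipocyte and 2 of 5 macrophage ones, with Ptprc (CD45) and Pecam1 above background on none. The summed signal of the fibroblast markers, in multiples of each array's 75th percentile, was 986 to 1070 in the first set's controls, 929 to 987 after KBrO3 and 738 to 774 after co-exposure at 4 hr, and 436 to 487 and 322 to 371 at 24 hr. Adipocyte markers summed to 44.0 to 49.9 in those controls, 53.3 to 54.4 and 36.8 to 37.4 after KBrO3 and co-exposure at 4 hr, and 16.1 to 16.9 and 13 to 14.1 at 24 hr. Fabp4 made up most of that sum. Pparg had a mean level of −0.19 in those controls, and like the sum it was higher after KBrO3 at 4 hr, at 1.45. Like the sum it was lower at 24 hr, at −0.47 and −0.54 after KBrO3 and co-exposure. After co-exposure at 4 hr Pparg was higher, at 0.74, whereas the sum was lower. Macrophage markers summed to 0.564 to 0.625 in those controls, 1.05 to 1.11 and 0.847 to 0.86 after KBrO3 and co-exposure at 4 hr, and 0.394 to 0.433 and 0.504 to 0.565 at 24 hr. Of the 2 macrophage markers detected throughout, Cd68 had mean levels of −3.08, −0.83, −1.42, −1.92 and −1.21 in these 5 groups and Lyz2 −1.21, −1.19, −1.36, −3.29 and −3.72. Skeletal muscle markers summed to 0.473 to 0.592 in those controls and 0.594 to 0.75 after co-exposure at 4 hr. At 24 hr they summed to 0.222 to 0.261 after KBrO3 and 0.0631 to 0.168 after co-exposure. In the second set, BPA at 24 hr gave 0.293 to 0.36 for macrophage markers, against 0.542 to 0.772 in its controls. Skeletal muscle markers there gave 0.301 to 0.405 against 0.555 to 0.669, and fibroblast and adipocyte sums overlapped the controls. The part of these shifts in the results was not tested. In RNA from whole dishes, fewer cells expressing a gene and less RNA per cell cannot be told apart.

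A level below is the log2 signal relative to its array's 75th percentile, and it is compared only between groups for 1 probe, never between genes. Where a gene has several probes (6 of the 10 genes), the brightest on average over the arrays gives its level and is called its main probe. Since the probes of a gene did not always move alike, the array sequences of 5 that lie in coding sequence are shown (5′ to 3′, lower case, positions in mouse build mm7 as the array files give them, a position that spans an intron running from the first to the last base). For Atg7 and Becn1 the sequence is that of the probe the results use, and for Map1lc3b, Gabarapl1 and Wipi1 it is the second probe.
Atg7, chr6:114802581-114802640, plus strand: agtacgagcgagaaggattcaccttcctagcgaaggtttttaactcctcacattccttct
Becn1, chr11:101399496-101400438, minus strand: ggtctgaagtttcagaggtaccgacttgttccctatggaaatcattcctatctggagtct
Map1lc3b, chr8:120238422-120238481, plus strand: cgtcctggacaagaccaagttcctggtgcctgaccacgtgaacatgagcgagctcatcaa
Gabarapl1, chr6:129561989-129564461, plus strand: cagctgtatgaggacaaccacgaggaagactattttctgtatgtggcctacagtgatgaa
Wipi1, chr11:109686690-109687346, minus strand: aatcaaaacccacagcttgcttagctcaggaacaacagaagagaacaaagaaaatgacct

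Calls of altered genes needed a change of over 1.5-fold up or down together with an adjusted p below 0.05 from limma, with the Benjamini-Hochberg adjustment made across every probe tested in the set. KBrO3 alone raised Map1lc3a and Atg5 and lowered Wipi1 at 4 hr, and lowered Wipi1 and Ulk1 at 24 hr. Co-exposure raised Atg5 and Atg12 and lowered Wipi1 at 4 hr, and raised Atg5 and Atg7 and lowered Wipi1 at 24 hr. BPA alone altered none of the 10 at either time. Wipi1 was thus lower than control in all 4 groups that received KBrO3, and it showed the largest difference from control of any of these genes.

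Each count stands near or below the share of all genes that were called. After KBrO3 at 4 hr, 2 of 10 members were higher and 1 was lower, where 21.1% of all genes tested were higher and 22.8% lower. After KBrO3 at 24 hr the members counted 0 higher and 2 lower, against 12.7% and 21.1% of all genes. Co-exposure at 4 hr gave 2 higher and 1 lower, against 28.1% and 26.5%, and at 24 hr again 2 higher and 1 lower, against 15.7% and 23.9%. For BPA alone the background was 3.01% higher and 1.67% lower at 4 hr and 1.83% and 2.48% at 24 hr, with 0 of 10 members in either direction; at an unadjusted p below 0.05, limma had 0 members at 4 hr and 1 at 24 hr. The median log2 fold change of the 10 genes was 0.23 after KBrO3 at 4 hr and 0.00 at 24 hr, beside 0.02 and −0.07 for all genes. For co-exposure it was 0.13 and 0.08, beside 0.01 and −0.06.

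**Figure D1:**
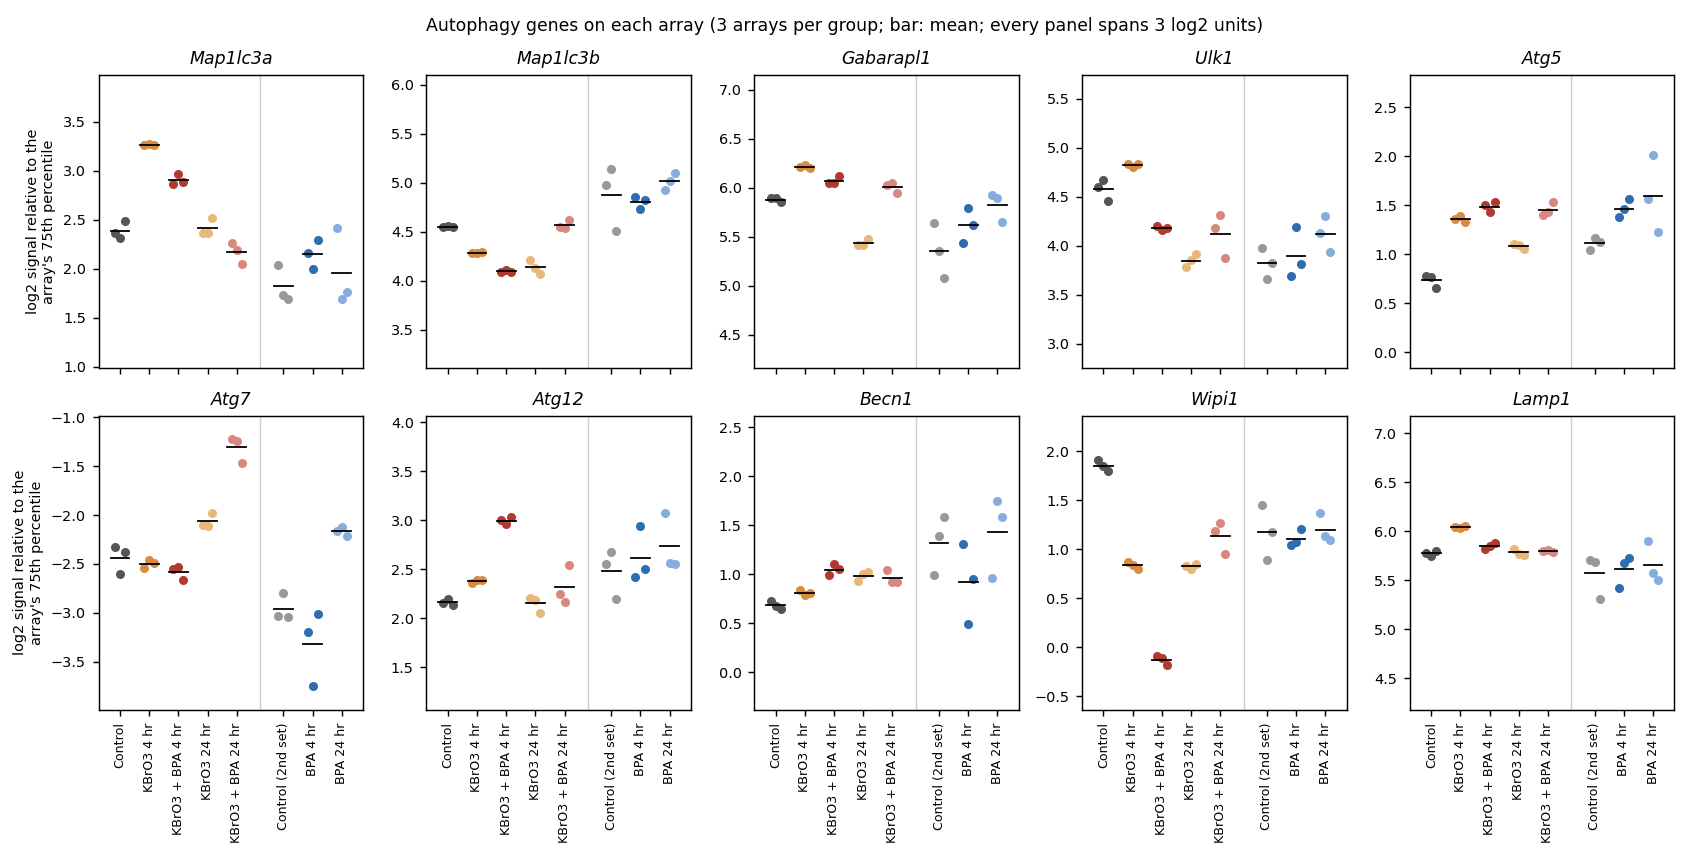
Log2 signal of each autophagy gene relative to the array's 75th percentile (vertical axis) on each of the 24 arrays, by group (horizontal axis, first set left and second set right of the grey line); points are arrays, bars are means of 3, and every panel spans 3 log2 units. Wipi1 falls from 1.80 to 1.91 in the first set's controls to between −0.18 and −0.09 after co-exposure at 4 hr, whereas Lamp1 stays between 5.75 and 6.05 in the first set.

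**Figure D2:**
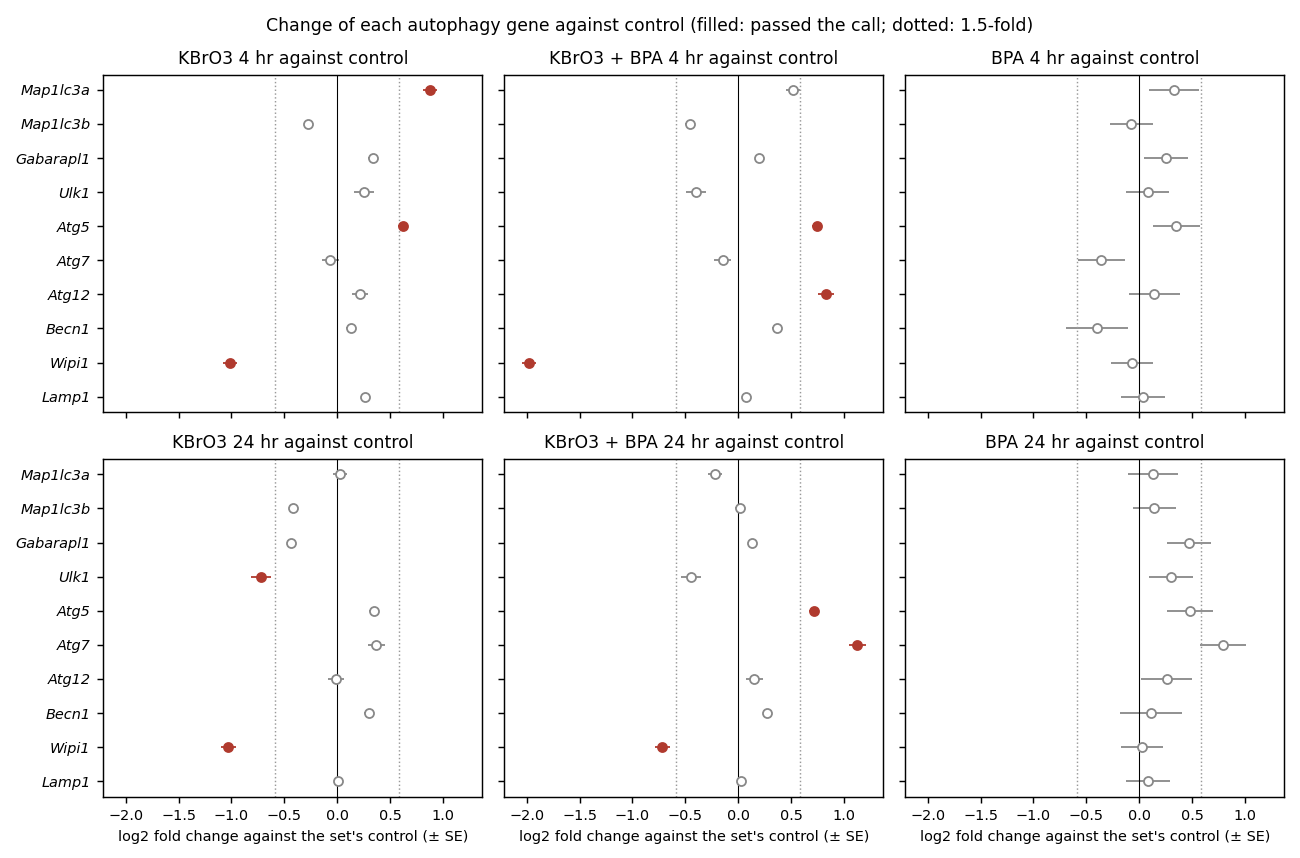
Log2 fold change (± SE from limma, n = 3 arrays per group) of each gene against the control of its own set for 6 treatments; filled points passed the call and dotted lines mark 1.5-fold. Standard errors are wider for BPA alone, where no gene passed, and Wipi1 is the only gene called in all 4 panels with KBrO3.

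Ulk1, the kinase that starts autophagy under the control of nutrient and energy sensors, fell at 24 hr after KBrO3 alone. Its levels were 4.60, 4.67 and 4.45 in the first set's controls, 4.83, 4.80 and 4.83 after KBrO3 at 4 hr, and 3.78, 3.85 and 3.91 at 24 hr. All 3 arrays at 24 hr lay below every control, and the fall was 1.65-fold (log2 −0.72 ± 0.094 SE, adjusted p = 2.46e-05 by limma). The 4 hr arrays lay above the controls, by 1.19-fold, within the 1.5-fold limit. Co-exposed cells had 4.20, 4.16 and 4.18 at 4 hr and 4.18, 4.31 and 3.87 at 24 hr, so that the co-exposed arrays lay below the controls at both times, by 1.31-fold and 1.37-fold, neither of which reached the fold limit. Set against KBrO3 alone, co-exposure lowered Ulk1 1.57-fold at 4 hr (log2 −0.65 ± 0.094, adjusted p = 0.000122 by limma), with no overlap of the arrays. This call ended at −0.56 under quantile normalization, at −0.42 when the probes were averaged, and under the Bonferroni limit. The call for KBrO3 at 24 hr ended at log2 −0.57 under quantile normalization or median scaling, at −0.40 with normexp, and at −0.31 when the probes were averaged. The second probe of Ulk1 stood 0.58 and 0.38 above control after KBrO3 and co-exposure at 4 hr and 0.10 and 0.16 above it at 24 hr, none of them called.

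Becn1, which encodes Beclin 1, was not called in any comparison. Its levels were 0.65 to 0.73 in controls, 0.79 to 0.84 after KBrO3 at 4 hr, 0.99 to 1.10 after co-exposure at 4 hr, 0.93 to 1.02 after KBrO3 at 24 hr and 0.92 to 1.04 after co-exposure at 24 hr. Every treated array of the first set was above every control array, and the highest of the 4 fold changes was 1.29. Under median scaling co-exposure at 24 hr was called higher (log2 0.60, adjusted p = 9.46e-05, beside 0.28).

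Wipi1, a PI3P-binding protein of the early autophagosome, gave 1.91, 1.85 and 1.80 in controls, 0.87, 0.84 and 0.80 after KBrO3 at 4 hr, and −0.09, −0.11 and −0.18 after co-exposure at 4 hr. The 3 groups did not overlap, and co-exposed cells lay lowest. Against control the fall was 2.02-fold after KBrO3 (log2 −1.01 ± 0.069 SE, adjusted p = 3.7e-08 by limma) and 3.94-fold after co-exposure (−1.98 ± 0.069, adjusted p = 6.28e-11). Co-exposure was 1.95-fold below KBrO3 alone (−0.96 ± 0.069, adjusted p = 5.44e-07). By 24 hr the order of the means had turned, by a log2 difference of 0.31 that was not called. KBrO3 alone gave 0.83, 0.80 and 0.85, a level that differed from its own 4 hr value by −0.01 ± 0.069 (adjusted p = 0.864), whereas co-exposed cells gave 1.19, 1.27 and 0.95. The co-exposed arrays at 24 hr all lay above those of KBrO3 alone and below the controls, at 1.64-fold under control (log2 −0.72 ± 0.069, adjusted p = 1.38e-06). This last call ended at −0.40 under median scaling, at −0.49 with normexp and at −0.47 with the probes averaged. The second probe, whose sequence is printed above, fell by 1.13 and 1.60 at 4 hr after KBrO3 and co-exposure, both called. At 24 hr it stood at −0.58 and −0.23 against control, within the fold limit.

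Atg7 encodes the activating enzyme of both ubiquitin-like systems. Its printed probe read −2.33, −2.60 and −2.38 in controls, −2.54 to −2.46 after KBrO3 and −2.66 to −2.53 after co-exposure at 4 hr, which overlapped the controls. At 24 hr KBrO3 alone gave −2.10, −2.11 and −1.98 and co-exposure −1.22, −1.24 and −1.47. The co-exposed arrays were the highest of the first set and overlapped no other group. The rise was 2.19-fold against control (log2 1.13 ± 0.082 SE, adjusted p = 1.09e-07 by limma) and 1.69-fold against KBrO3 alone (0.76 ± 0.082, adjusted p = 1.3e-05). With normexp background correction, which affects dim probes most, these became 0.19 (adjusted p = 0.56) and 0.65 (adjusted p = 0.195), and neither was called. Averaging the probes also ended the call against control, at 0.44. With normexp co-exposure at 4 hr was called lower (−0.71, adjusted p = 0.0483). A second, dimmer probe, matched by symbol only, fell by 1.32 after KBrO3 at 24 hr (called), stood at −0.24 against control after co-exposure at 24 hr, and rose in co-exposure over KBrO3 alone, by 1.08 (adjusted p = 5.56e-05). Both probes therefore placed co-exposure above KBrO3 alone at 24 hr, and they differed in where KBrO3 alone lay against control.

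Atg5, the acceptor of ATG12, lay above every control array in all 4 groups that received KBrO3 and was called higher in 3 of them. Control arrays read 0.78, 0.77 and 0.66, KBrO3 at 4 hr 1.36, 1.39 and 1.33, and co-exposure at 4 hr 1.5, 1.43 and 1.53. At 24 hr KBrO3 alone gave 1.11, 1.10 and 1.05 and co-exposure 1.40, 1.43 and 1.53. The co-exposed arrays at 24 hr differed from those at 4 hr by −0.03 ± 0.048 (adjusted p = 0.55), which became 0.43 (adjusted p = 0.000431) under median scaling, and KBrO3 alone differed by −0.27, which became −0.12. None of these changes with time in Atg5 was called. The rises were 1.54-fold after KBrO3 at 4 hr (log2 0.62 ± 0.048 SE, adjusted p = 1.45e-07 by limma) and, with BPA present, 1.68-fold at 4 hr (0.75, adjusted p = 2.13e-08) and 1.64-fold at 24 hr (0.72, adjusted p = 5.62e-08). The 1.27-fold difference after KBrO3 at 24 hr stayed within the fold limit. The call after KBrO3 at 4 hr lay close to that limit, and it ended at 0.58 without the third control array and at 0.52 with quantile normalization.

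Atg12, the ubiquitin-like partner of ATG5, rose against control on its main probe after co-exposure at 4 hr and in no other comparison with control, to 3.00, 2.96 and 3.03 from 2.16, 2.20 and 2.14 in controls. KBrO3 alone at 4 hr read 2.36, 2.39 and 2.39, between the other two groups and overlapping neither. The rise of co-exposure was 1.78-fold against control (log2 0.83 ± 0.078 SE, adjusted p = 7.64e-07 by limma) and 1.53-fold against KBrO3 alone (0.61, adjusted p = 4.33e-05). At 24 hr the co-exposed arrays had returned to 2.25, 2.17 and 2.54, and 1 of them lay within the controls' range. The other 2 probes of Atg12 did not share this pattern: after co-exposure at 4 hr they stood 0.08 and 0.11 from control, and 0.11 and 0.12 below KBrO3 alone. With the 3 probes averaged, the differences became 0.34 and 0.13 and neither was called. The difference from KBrO3 alone also lost its call under median scaling, at 0.47.

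Of the 3 ATG8 genes, Map1lc3a (LC3A) was the one called against control on its main probe. Its levels were 2.36, 2.31 and 2.49 in controls, 3.26, 3.27 and 3.26 after KBrO3 at 4 hr, and 2.86, 2.97 and 2.88 after co-exposure at 4 hr. Both treated groups lay above all controls, with KBrO3 alone the higher. The rise was 1.84-fold after KBrO3 (log2 0.88 ± 0.065 SE, adjusted p = 9.14e-08 by limma), and the 1.43-fold difference after co-exposure was within the fold limit. With normexp the latter was called too (0.74, adjusted p = 0.00212). By 24 hr KBrO3 alone read 2.36, 2.36 and 2.52, overlapping the controls, and co-exposure 2.26, 2.19 and 2.05, just below them.

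Map1lc3b (LC3B), the most used marker of autophagosomes, was read by 2 probes that disagreed. The main one gave 4.55, 4.56 and 4.55 in controls, 4.28, 4.28 and 4.29 after KBrO3 at 4 hr, 4.09 to 4.11 after co-exposure at 4 hr, 4.07 to 4.21 after KBrO3 at 24 hr and 4.54 to 4.62 after co-exposure at 24 hr. The first 3 treated groups lay below the controls, by at most 1.37-fold, and the last overlapped them. The coding-sequence probe printed above gave 4.18 to 4.20 in controls and 4.40 to 4.42 after KBrO3 at 4 hr, a difference of 0.22 ± 0.063, where the main probe differed by −0.27. Neither difference was called, and no direction is given for Map1lc3b after KBrO3 at 4 hr. After co-exposure at 4 hr the coding-sequence probe read 4.06 to 4.11, so both probes lay below their controls (−0.46 and −0.10), and the main probe was called lower under quantile normalization (−0.62) and median scaling (−0.60). Its change from 4 to 24 hr in co-exposure, 0.47, was called higher under the same alternatives (0.71 and 0.93). On both probes co-exposure at 24 hr lay above KBrO3 alone, by 0.43 and 0.25.

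Gabarapl1, an ATG8 protein of the GABARAP branch, gave 5.89, 5.89 and 5.85 in controls, 6.21, 6.23 and 6.20 after KBrO3 at 4 hr, 6.05, 6.05 and 6.12 after co-exposure at 4 hr, 5.42, 5.42 and 5.48 after KBrO3 at 24 hr, and 6.03, 6.05 and 5.95 after co-exposure at 24 hr. KBrO3 alone lay above the controls at 4 hr and below them at 24 hr, while co-exposure lay above them at both times on this scale. No difference from control passed the fold limit, and the signs after KBrO3 at 4 hr of Gabarapl1, Map1lc3b and Lamp1, and that of Gabarapl1 after co-exposure at 4 hr (down to −0.08), changed under at least 1 alternative setting. With normexp, Gabarapl1 was called higher after KBrO3 at 4 hr (0.62, adjusted p = 0.00814). Co-exposure stood 1.48-fold above KBrO3 alone at 24 hr (log2 0.57 ± 0.039 SE, adjusted p = 2.68e-07 by limma), just short of the limit, and it passed, at 0.59, with slide as a term. The coding-sequence probe, which spans 2 exons, rose 1.69-fold against control (0.76 ± 0.056, adjusted p = 1.17e-07) and 1.53-fold against KBrO3 alone (0.61, adjusted p = 2.97e-06) after co-exposure at 24 hr, both called. After KBrO3 alone at 24 hr this probe stood 0.15 above control and the main one 0.44 below (log2 −0.44).

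**Figure D3:**
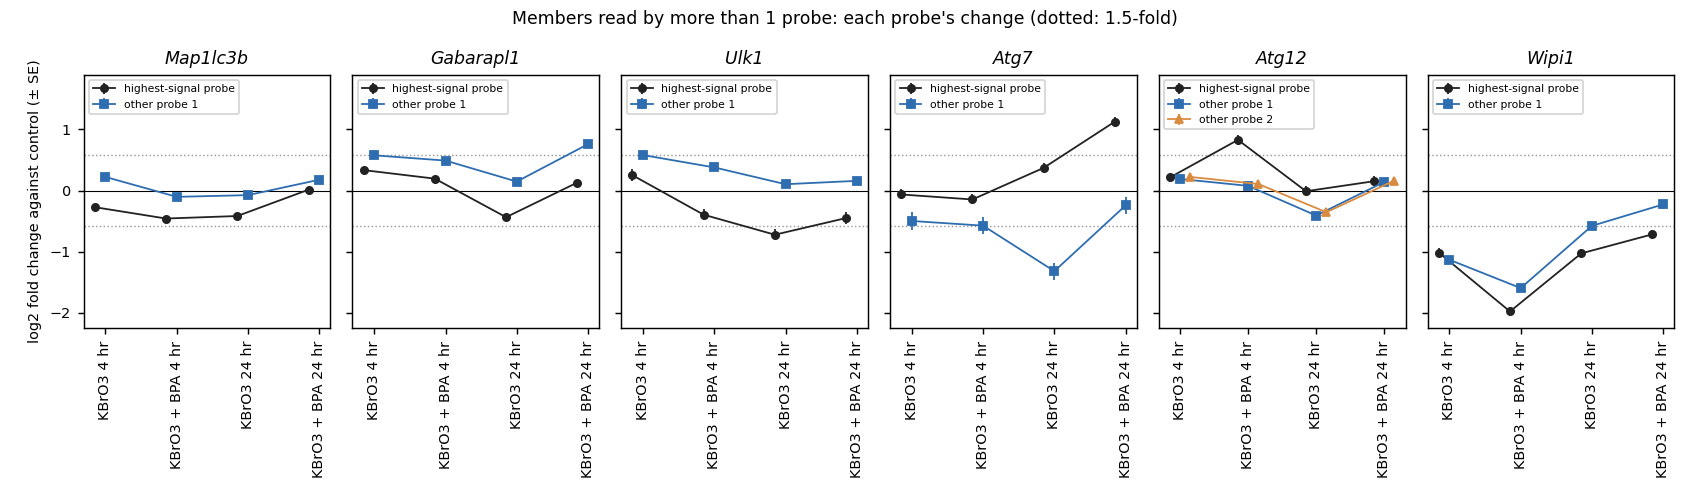
Log2 fold change against control (± SE from limma, n = 3 arrays per group) for every probe of the 6 members that have more than 1, after KBrO3 and co-exposure at 4 and 24 hr; dotted lines mark 1.5-fold. The 2 probes of Wipi1 are below 0 in all 4 comparisons, whereas only 1 of the 3 probes of Atg12 passes 1.5-fold after co-exposure at 4 hr and the 2 probes of Atg7 lie on opposite sides of 0 at 24 hr.

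Lamp1, an abundant glycoprotein of the lysosomal membrane, was the steadiest member. Controls read 5.78, 5.75 and 5.80, KBrO3 at 4 hr 6.04, 6.03 and 6.05, and the other 3 KBrO3 groups 5.76 to 5.88. KBrO3 at 4 hr lay above all other arrays of the first set, by 1.20-fold over control, and none of its comparisons was called.

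Against KBrO3 alone, adding BPA altered 1 member upward (Atg12) and 2 downward (Ulk1 and Wipi1) at 4 hr, where 10.6% of all genes were higher and 9.05% lower. At 24 hr it raised 1 (Atg7) and lowered 0, where 6.55% of all genes were higher and 7.59% lower. Whether the effect of BPA differed between the times was tested as an interaction. It was called for 5 of the 10 members, all upward (13.2% of all genes were called higher and 13.4% lower). Wipi1 changed by 1.28 ± 0.097 from 4 to 24 hr (adjusted p = 1.53e-06 by limma), Ulk1 by 0.92 ± 0.133 (adjusted p = 0.000158), Atg7 by 0.84 ± 0.116 (adjusted p = 0.000119), Gabarapl1 by 0.71 ± 0.055 (adjusted p = 1.73e-06) and Map1lc3b by 0.62 ± 0.057 (adjusted p = 6.63e-06). On the main probe of each of these 5 genes, BPA added to KBrO3 gave a lower mean at 4 hr and a higher one at 24 hr. Of these differences, only those of Wipi1 and Ulk1 at 4 hr and of Atg7 at 24 hr were called. The median interaction over the 10 genes was 0.43, beside 0.02 over all genes. Other probes gave 0.81 for Wipi1, 1.16 for Atg7 and 0.70 for Gabarapl1, all called, and 0.26 for Ulk1 and 0.58 for Map1lc3b, not called. Atg12 gave −0.45 on its main probe, not called, and 0.66 and 0.63 on the others, both called. Median scaling raised the median over all genes to 0.33. The call ended for Gabarapl1 at 0.41 and for Map1lc3b at 0.44 under quantile normalization, and with normexp it ended for Gabarapl1 (0.75, adjusted p = 0.068), Map1lc3b (0.60, adjusted p = 0.134) and Atg7 (0.69, adjusted p = 0.374); without the third KBrO3 array at 24 hr, Map1lc3b fell to 0.58 and was not called.

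**Figure D4:**
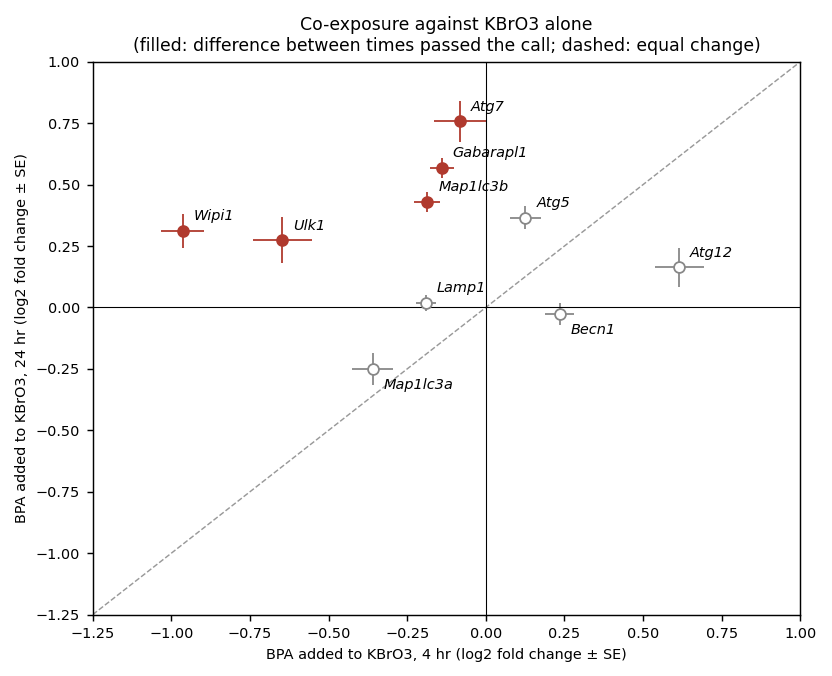
Log2 fold change of co-exposure over KBrO3 alone at 4 hr (horizontal axis) and at 24 hr (vertical axis) for the 10 genes, with SE bars from limma (n = 3 arrays per group); the dashed line marks equal change and filled points passed the test of the difference between times. The 5 filled points, Wipi1, Ulk1, Atg7, Gabarapl1 and Map1lc3b, lie left of 0 and above 0.

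From 4 to 24 hr, KBrO3 alone showed 3 members lower (Ulk1, Map1lc3a and Gabarapl1, by 1.97-, 1.80- and 1.71-fold) and 0 higher, where 28.6% of all genes were lower and 19.2% higher. All 3 calls ended under quantile normalization, at −0.57, −0.57 and −0.12. Co-exposure showed 2 higher (Atg7 by 2.42-fold and Wipi1 by 2.40-fold) and 2 lower (Map1lc3a by 1.67-fold and Atg12 by 1.60-fold), where 23.4% were higher and 34.1% lower. Of these, Map1lc3a became −0.28 and Atg12 −0.22 under median scaling, and neither was then called. No control was labelled as sampled at 24 hr, so time in culture and time after damage cannot be told apart.

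For BPA alone, none of the differences from control passed the test. The difference from control ranged from −0.40 (Becn1) to 0.35 (Atg5) at 4 hr and from 0.03 (Wipi1) to 0.79 (Atg7) at 24 hr, and the standard errors were 0.200 to 0.295. Wipi1, which KBrO3 lowered, read 1.45, 0.89 and 1.18 in the second set's controls, 1.04, 1.07 and 1.21 after BPA at 4 hr and 1.37, 1.14 and 1.09 at 24 hr. The 3 groups overlapped. Atg7 read −3.03, −2.80 and −3.04 in those controls, −3.19, −3.75 and −3.01 at 4 hr and −2.16, −2.12 and −2.21 at 24 hr. Its 24 hr arrays lay above all others of the set, 1.73-fold over control (log2 0.79 ± 0.220, adjusted p = 0.0923 by limma), and 2.22-fold over BPA at 4 hr (1.15 ± 0.220, adjusted p = 0.0229). The latter made 1 of 10 members called higher and 0 lower, where 1.24% and 3.05% of all genes were, and it was lost with normexp (0.29, adjusted p = 0.785), with the probes averaged (0.55, adjusted p = 0.142), with slide as a term (0.85, adjusted p = 0.443) and on leaving out any of the 6 BPA arrays (0.94 to 1.30, adjusted p from 0.0535 to 0.0724). Atg5 was above every control of the set at both times, by 1.28- and 1.40-fold, and neither difference passed the test (adjusted p = 0.435 and 0.285). The second Atg7 probe differed by 1.11 at 4 hr and 1.05 at 24 hr, neither called, while the main probe was at −0.36 and 0.79.

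Slides hold several groups only in part. KBrO3 at 4 hr shared a slide with 1 control array, against which Wipi1 differed by −0.97, Map1lc3a by 0.78 and Atg5 by 0.70. Co-exposure and KBrO3 alone at 24 hr shared a slide (2 arrays each), on which Atg7 differed by 0.82 and Gabarapl1 by 0.59. BPA at 24 hr shared each of 2 slides with 1 control array, and Atg7 was higher by 0.64 and 0.92. BPA at 4 hr (2 arrays) shared a slide with 1 control, and Atg7 differed by −0.07 there. For the other comparisons with the control, and for co-exposure against KBrO3 alone at 4 hr, slide and treatment cannot be told apart. The same holds for the change from 4 to 24 hr after KBrO3 alone and for the interaction, which could not be fitted with slide as a fixed term, and no slide holds co-exposed arrays of both times.

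The share of calls over all genes that were higher depends on the scaling. Median scaling moved it from 37.6% to 53.3% for KBrO3 at 24 hr, from 39.7% to 65.9% for co-exposure at 24 hr, from 53.8% to 33.3% and from 46.3% to 71.8% for BPA added at 4 and 24 hr, from 40.1% to 50.3% and from 40.7% to 64.2% for the change with time after KBrO3 and co-exposure, and from 49.8% to 80.2% for the interaction. Quantile normalization gave 52.8% and 52.2% for those changes with time. Normexp gave 25.9% for KBrO3 at 24 hr, 41.0% for co-exposure at 4 hr (51.4% before), 41.0% for BPA added at 4 hr, 64.6% for the interaction and 100% for BPA at 4 hr (64.3% before), and no calls for BPA at 24 hr. The median over all genes moved most for co-exposure from 4 to 24 hr, from −0.16 to 0.30 with median scaling.

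Of 91 other autophagy and lysosome genes listed by function, 90 were tested. KBrO3 at 4 hr raised 14 and lowered 20, and co-exposure at 4 hr raised 24 and lowered 20. At 24 hr KBrO3 raised 4 and lowered 17, and co-exposure raised 13 and lowered 11. BPA alone raised 1 and lowered 0 at 4 hr and raised 3 and lowered 1 at 24 hr, and BPA added to KBrO3 raised 4 and lowered 6 at 4 hr and raised 13 and lowered 1 at 24 hr. Over all genes, KBrO3 gave 21.1% higher and 22.8% lower at 4 hr and 12.7% and 21.1% at 24 hr, and co-exposure gave 28.1% and 26.5%, then 15.7% and 23.9%. BPA alone gave 3.01% and 1.67%, then 1.83% and 2.48%. For BPA added to KBrO3 these shares were 10.6% and 9.05% at 4 hr and 6.55% and 7.59% at 24 hr. The genes named next are the largest changes of single comparisons, so a gene named in 1 comparison may have changed in others too.

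Among cargo receptors, Sqstm1 (p62, which links ubiquitinated cargo to LC3) read 5.90, 5.88 and 5.91 in controls, 8.14, 8.07 and 8.02 after KBrO3 at 4 hr and 8.26, 8.40 and 8.19 after co-exposure at 4 hr. It rose 4.53-fold (log2 2.18 ± 0.085, adjusted p = 2.34e-10 by limma) and 5.24-fold, more than any of the 10 members. Calcoco1, a receptor for portions of the endoplasmic reticulum, fell 3.93-fold after co-exposure at 4 hr and 2.19-fold after KBrO3 at 24 hr. Of the 12 cargo receptors tested, 2 rose and 4 fell after KBrO3 at 4 hr, and 4 rose and 5 fell after co-exposure at 4 hr, beside the shares of all genes just given (21.1% and 22.8%, then 28.1% and 26.5%).

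Wipi1 was not followed by its whole family. Wdr45 (WIPI4) fell 2.85-fold after KBrO3 and 3.60-fold after co-exposure at 4 hr, whereas Wipi2 rose by log2 1.25 ± 0.060 and 1.37 ± 0.060 and Wdr45b (WIPI3) by 0.96 ± 0.064 and 0.94 ± 0.064, all called by limma. Wipi2 and Wdr45b were chosen for mention after their values were seen, and their 4 hr calls held under all 3 scalings. In the conjugation list, Atg16l2, a paralog of the ATG5 partner ATG16L1, fell 4.38-fold after KBrO3 and 4.94-fold after co-exposure at 4 hr, and Atg4c, a protease that processes ATG8 proteins, fell 2.72-fold after KBrO3 and 2.11-fold after co-exposure at 4 hr. Atg4d, of the same protease family, rose 1.72-fold after KBrO3 at 24 hr, a call that ended with normexp at 0.25.

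Regulators included the largest rises at 4 hr. Sesn2, a stress-induced sestrin that restrains mTORC1, read 3.22, 3.13 and 3.08 in controls, 5.45, 5.41 and 5.44 after KBrO3 and 6.27, 6.27 and 6.16 after co-exposure at 4 hr. It rose 4.90-fold and 8.52-fold (adjusted p = 6.72e-10 and 3.76e-11 by limma), with no overlap of the 3 groups. At 24 hr it stood 2.81-fold above control after co-exposure, with arrays at 4.70, 4.85 and 4.35, and KBrO3 alone had returned to 3.13, 3.16 and 3.27. Ddit4 (REDD1, another mTORC1 inhibitor) rose 4.09-fold after co-exposure at 4 hr and was 3.48-fold above KBrO3 alone. Foxo1, a transcription factor known to induce autophagy genes, rose 3.34-fold after KBrO3 and 2.12-fold after co-exposure at 4 hr. Trp53inp2, a nuclear protein that binds ATG8 proteins, rose 2.19-fold after KBrO3 and 1.73-fold after co-exposure at 4 hr and fell 3.26-fold and 5.81-fold at 24 hr, while its relative Trp53inp1, a p53 target, rose 3.65-fold after co-exposure at 24 hr. Sesn3, another sestrin, fell 3.1-fold and 3.02-fold in the same 2 groups, and Mitf, a relative of TFEB, fell 2.17-fold after KBrO3 and 2.01-fold after co-exposure at 24 hr. BPA alone raised Sesn2 2.28-fold at 4 hr (adjusted p = 0.0313) and 2.58-fold at 24 hr (adjusted p = 0.0211), Ddit4 2.07-fold at 24 hr (adjusted p = 0.0466) and the lysosomal galactosidase gene Gla 2.77-fold at 24 hr (adjusted p = 0.0241), and lowered Trp53inp2 2.09-fold at 24 hr (adjusted p = 0.0484). None of these 5 calls in BPA alone held with normexp, where log2 fold changes were 1.06 and 1.54 for Sesn2 at 4 and 24 hr, 1.20 for Ddit4, 1.30 for Gla and −0.97 for Trp53inp2. Median scaling also ended those of Sesn2 at 4 hr (1.18), Ddit4 (1.15) and Trp53inp2 (−0.96), and quantile normalization that of Ddit4 (0.89). Deptor, an inhibitor of mTOR, rose 1.81-fold after KBrO3 at 24 hr, a call that ended with normexp at 0.25. Against KBrO3 alone, adding BPA at 4 hr also raised the fusion SNARE gene Stx17 2.03-fold and Sesn2 1.74-fold. At that time it lowered Calcoco1 2.69-fold, Prkaa1, a catalytic subunit of AMPK, 1.73-fold and the mitophagy receptor Bnip3 1.58-fold. At 24 hr adding BPA raised Trp53inp1 2.98-fold, Ddit4 2.87-fold and Sesn2 2.72-fold over KBrO3 alone, and lowered Trp53inp2 1.78-fold. Of the genes lowered at 4 hr, Bnip3 was 1.64-fold higher in co-exposure than after KBrO3 alone at 24 hr, and Prkaa1 differed by −0.03. For Calcoco1 at 24 hr the co-exposed arrays had the higher mean and overlapped those of KBrO3 alone. Gla also rose 1.96-fold after KBrO3 and 3.48-fold after co-exposure at 24 hr. Of 20 lysosome genes, 1 rose and 6 fell after KBrO3 at 24 hr, where 12.7% of all genes were higher and 21.1% lower.

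**Figure D5:**
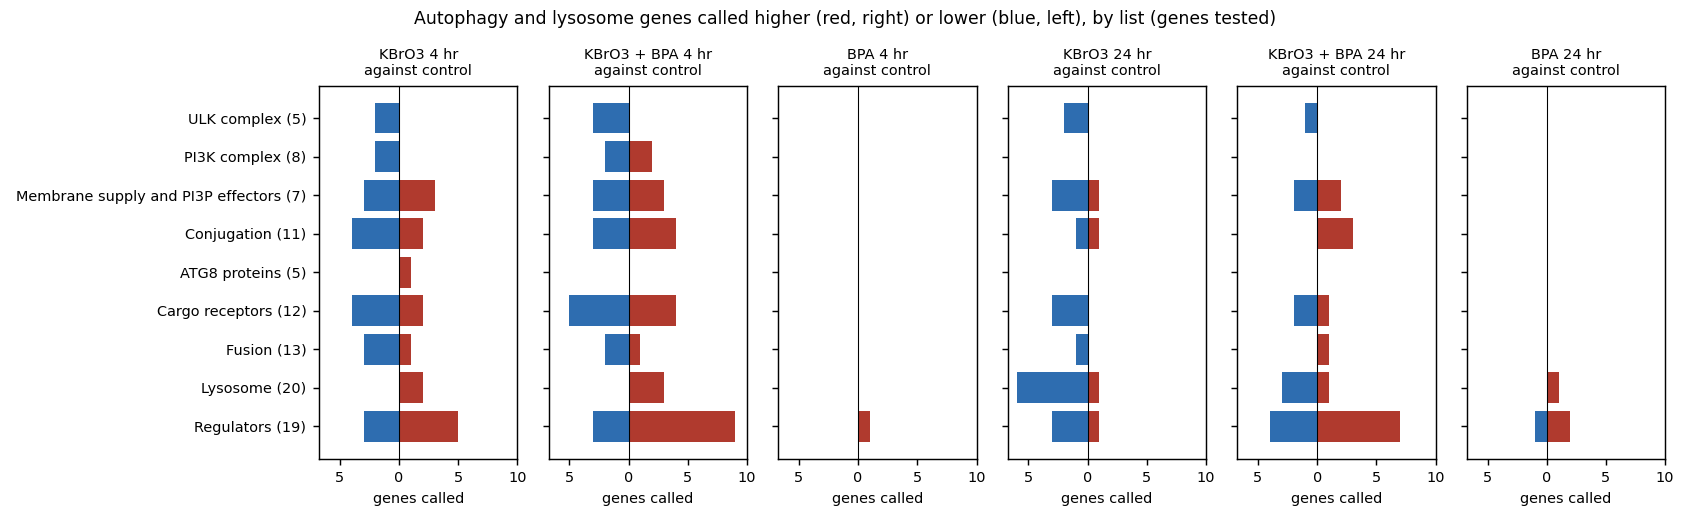
Number of genes called higher (right, red) or lower (left, blue) against control in 9 lists of autophagy and lysosome genes, members included, for the 6 treatments; the number tested in each list stands in brackets. Regulators show 9 higher after co-exposure at 4 hr and the lysosome list shows 6 lower after KBrO3 at 24 hr (28.1% of all genes were higher and 21.1% lower in those comparisons), and BPA alone shows at most 3 calls in a list.

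Promoter sequence, taken from RefSeq (GRCm38.p6), was at hand for 7 of the 10 members (Map1lc3b, Gabarapl1, Ulk1, Atg5, Atg7, Wipi1 and Lamp1), and the 250 bases before each start were searched on both strands. The E-box CACGTG, the core of sites bound by the lysosomal regulator TFEB and by other E-box factors, occurs in 3 of the 7 (Atg5, Atg7 and Lamp1), where 6.02% of 32851 promoters hold it. The Atg7 entry starts inside the gene, downstream of the first start that the annotation gives. The entries of Atg5 and Ulk1 also start within the annotated gene, near its 5′ end, and the E-box of Atg5 lies just inside the annotated gene. TGATGNAA, the letters of a site for ATF4 with C/EBP factors, occurs in 0 of 7 and in 3.45% of all, and TGACNNNGC, the core of the NRF2 site, in 0 of 7 and 10.2%.  A match is a description of the letters in this window and not of binding. The promoters of Lamp1, which holds 4 E-boxes and was the steadiest member, of Atg5, which holds 1 and was called higher in 3 comparisons, and of Wipi1, which holds none and was lower in 4, are shown 5′ to 3′ on the strand of the gene with CACGTG in capitals.
Lamp1, chr8:13158911-13159160, plus strand: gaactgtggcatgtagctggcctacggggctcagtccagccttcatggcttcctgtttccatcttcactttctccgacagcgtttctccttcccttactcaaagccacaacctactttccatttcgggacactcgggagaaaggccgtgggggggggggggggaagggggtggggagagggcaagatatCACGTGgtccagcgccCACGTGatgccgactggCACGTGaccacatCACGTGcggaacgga
Atg5, chr10:44268089-44268338, plus strand: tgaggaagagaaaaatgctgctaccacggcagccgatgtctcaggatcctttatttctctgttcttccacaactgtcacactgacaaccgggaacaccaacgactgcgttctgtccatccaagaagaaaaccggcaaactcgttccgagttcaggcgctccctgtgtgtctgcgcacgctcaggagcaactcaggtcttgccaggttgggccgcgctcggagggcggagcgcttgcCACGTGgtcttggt
Wipi1, chr11:109611390-109611639, minus strand: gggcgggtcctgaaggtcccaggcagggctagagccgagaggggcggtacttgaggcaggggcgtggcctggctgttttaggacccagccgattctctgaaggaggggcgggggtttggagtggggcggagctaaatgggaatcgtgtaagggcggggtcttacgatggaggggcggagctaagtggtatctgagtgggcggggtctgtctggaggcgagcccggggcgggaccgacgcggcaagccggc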

How the data were processed

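RNA from each of 24 dishes was labeled with Cy3 and hybridized to a 1-color Agilent array. The authors deposited an intensity per spot from Agilent Feature Extraction (version 12.0 in the submitters' processing notes, 9.5.3.1 and 12.0.0.7 per the file headers of the first and second set), not normalized between arrays. The series' table of deposited intensity values equals the scanner output in all 1080432 values (relative tolerance 1e-06). Signals were taken as log2 minus the 75th percentile of their array, spots flagged as outliers were dropped and the spots of a probe averaged (R 4.3.3, limma 3.58.1, Python 3.11.15). Probes were matched to RefSeq genes of GRCm38.p6 by accession (23079 probes), symbol (6582) or synonym (3074). A probe was tested when well above background on every array of a group. Each set was fitted apart with lmFit and eBayes, two-sided, over 12 comparisons. The methods' Bonferroni limit of 0.01 was an alternative, as were other scalings, normexp (offset 50, on mean signals in the first set and on median signals in the second), dim-probe filters, error weights, averaged probes, slide and replicate blocks, and leaving out each array. The fit was tested on simulated data with 200 changed probes. The members and the gene lists were chosen with earlier results of these data known. The named genes were the 10 members in every comparison and, of the other listed genes, the 3 largest rises and 3 largest falls called in each comparison with control and for BPA added to KBrO3. Levels of the 2 sets were never set against each other. The number of arrays limits the precision.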

Additional observations from a re-analysis of the deposited data

Results flagged for a closer look

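Effects that differed between 4 and 24 hr were singled out where limma's test of the difference passed the call. Within KBrO3 alone, the difference from control changed between the times by −0.98 for Ulk1, −0.85 for Map1lc3a and −0.77 for Gabarapl1 (log2). After co-exposure it changed by 1.27 for Atg7, 1.26 for Wipi1, −0.68 for Atg12 and −0.74 for Map1lc3a. With BPA alone it changed by 1.15 for Atg7. The effect of adding BPA to KBrO3 changed from 4 to 24 hr by 1.28 for Wipi1, 0.92 for Ulk1, 0.84 for Atg7, 0.71 for Gabarapl1 and 0.62 for Map1lc3b.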

How the results depend on the processing

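No member called with the 1.5-fold limit reversed its direction under the alternatives run, whereas differences that were not called did in several comparisons. Without the 1.5-fold limit, 9 members were called for KBrO3 at 4 hr and 7 at 24 hr, 8 and 7 for co-exposure, 9 and 7 for BPA added to KBrO3, 9 for KBrO3 from 4 to 24 hr and 9 for the interaction. The Bonferroni limit left 1 for KBrO3 at 24 hr, 1 and 0 for BPA added at 4 and 24 hr, 0 for BPA alone from 4 to 24 hr and 3 for the interaction. Quantile normalization left 1 for KBrO3 at 24 hr, 0 for its change from 4 to 24 hr and 3 for the interaction. Median scaling gave 1 for KBrO3 at 24 hr and 3 for BPA added at 24 hr. Normexp gave 1 for KBrO3 at 24 hr, 5 and 1 for co-exposure at 4 and 24 hr, 0 for BPA alone from 4 to 24 hr and 2 for the interaction. Averaging a gene's probes gave 1 for KBrO3 at 24 hr, 1 for co-exposure at 24 hr, 1 for BPA at 24 hr (Atg7, 0.92), 1 and 2 for BPA added at 4 and 24 hr and 0 for BPA from 4 to 24 hr. Slide as a fixed term gave 2 for BPA added at 24 hr and 0 for BPA from 4 to 24 hr. The cause of these changes was not tested. Leaving out 1 array gave 1 to 2 for BPA added at 24 hr and 0 to 1 for BPA from 4 to 24 hr, and counts within 1.5 times the main one elsewhere. Replicate numbers did not pair the arrays (the mean correlation between residuals of equal numbers was −0.029 for the first set and 0.002 for the second), and the replicate block changed 1 count, that of BPA from 4 to 24 hr, to 0. Random slide blocks, error weights, dim-probe filters, kept outlier spots, the series' table and fits of only the groups compared changed no count by more than 1.5 times.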
